A study of Mus musculus with 4 samples.

Results

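Islets of KR mutant mice were compared with islets of wild-type (WT) mice, both fasted, gene by gene. The comparison used 2 of the study's 4 RNA-seq libraries, 1 for each genotype, and the other 2 came from refed mice. All mice were C57BL/6. Fasted groups had a fast of 48 h per the sample titles and of 24 h per the extraction protocol, and refed groups had 6 h of refeeding after it. Islets of 3 mice were combined per genotype, so each library is a pool, and no animal-to-animal spread can be measured. Neither age nor sex is described here. The labels call the genotype only "KR mutant". From knowledge of the study, KR names a knock-in in which the lysines of FoxO1 that are acetylated are replaced by arginine, so the protein stays deacetylated in every cell type that makes it. The series as titled is about how deacetylated FoxO1 bears on the burning of fat and the release of insulin by beta-cells.

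FoxO1 is a transcription factor that insulin keeps out of the nucleus. In fasting, when insulin is low, it enters the nucleus and turns on genes of fuel use, growth arrest and stress defence. In the beta-cell it is known for protecting cell identity under metabolic stress, and its acetylation, which nuclear acetyltransferases add and sirtuins remove, sets its stability and its choice of targets.

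Levels were deposited as FPKM, fragments per kilobase of transcript scaled to the mapped fragments of the library, with a lower and an upper bound for each gene. A ratio below is always log2((KR + 1)/(WT + 1)) on FPKM, so positive means higher in KR, and the change of low genes is understated. Its interval combines the deposited upper half-widths of both values. Bounds and intervals cover counting and assignment error within a library, not differences between mice. Genes were called when the ratio was at least 1.5-fold and the bounds did not overlap, and genes with bounds apart are those that met the second condition, whatever the fold. With 1 library a side there is no replicate check and no p-value.

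The typical gene differed little between the genotypes in fasting. Of 23235 gene symbols, 11923 had a mean of at least 1 FPKM and a value in both libraries. Their median ratio was -0.03, with quartiles of -0.12 and 0.06, and 81.6% lay within 0.2 of 0. Ratios were above 0 for 4785 genes (40.1%) and below 0 for 7138. At the filter, Selplg entered with 0.910 FPKM in WT and 1.09 in KR, and Grk4 fell outside with 0.824 and 1.18. Calls numbered 60 higher in KR (0.503%) and 45 lower (0.377%). Of these, 13 called higher were under 1 FPKM in WT and 2 called lower under 1 FPKM in KR, so they passed the filter through the library where they were high. At 2-fold and bounds apart the counts were 12 higher (0.101%) and 6 lower (0.0503%). At the edge of the fold, Ankrd37 was inside at 0.59 and C8b outside at 0.58 on the higher side. On the lower side Pmm1 was inside at -0.59 and Ddit3 outside at -0.58.

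Bounds were apart for 894 genes higher in KR (7.5%) and 1864 lower (15.6%). Among the 7135 genes with a mean of at least 10 FPKM the shares were 8.63% and 21.5%. This excess on the lower side depends on the scaling. Dividing the KR values by the median KR to WT ratio of 0.976 gave 1299 higher and 1285 lower, so the share on the higher side moved from 32.4% to 50.3%. The called genes went from 60 higher and 45 lower to 80 and 35, or from 57.1% to 69.6% higher. Scaling the libraries to equal FPKM sums without Ins1 and Ins2 gave 59 higher and 50 lower. Ratios below are therefore read against the median of -0.03 of all genes. Counts of list members as deposited are read against 40.1% of all genes above 0, and 7.5% higher and 15.6% lower by bounds. Both fasted libraries were about equally deep, with about 25633900 fragments in WT and 25718900 in KR as implied by the bounds, Ins2 left out. The median half-width of a ratio was 0.22 at 1 to 5 FPKM and 0.05 above 100 FPKM, and bounds were apart for 12% of the lowest and 49.2% of the highest genes.

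**Figure D1:**
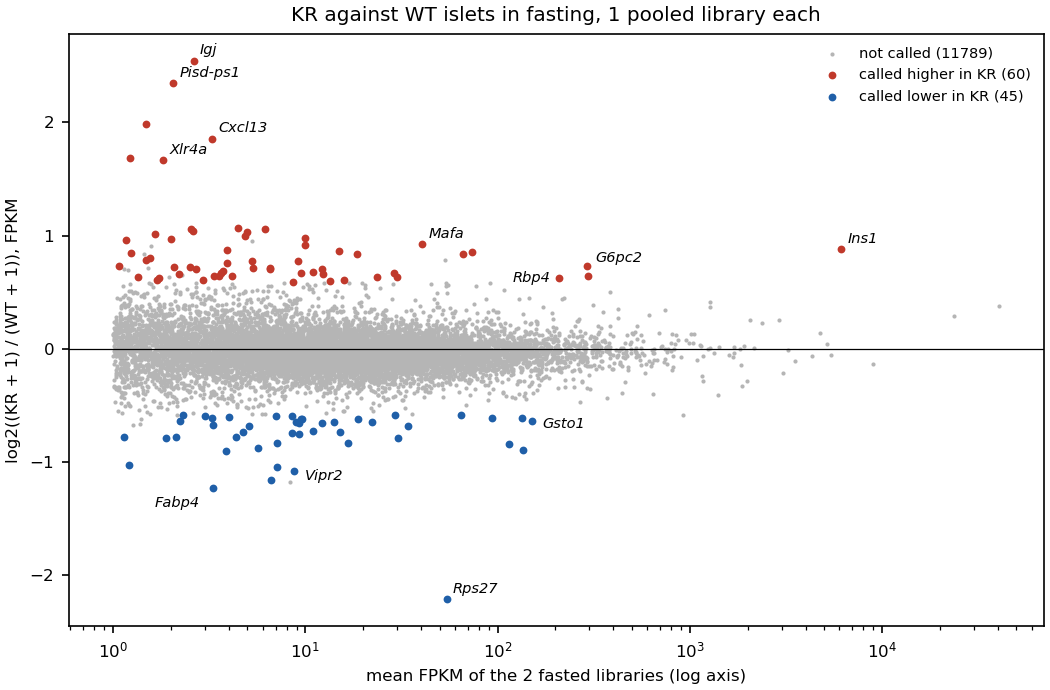
Ratio of KR to WT in fasting (y axis, log2 of FPKM + 1) against the mean FPKM of the 2 fasted libraries (x axis, log scale), 1 point per gene, with 29 small RNA genes left out. The 60 genes called higher (red) and the 45 called lower (blue) stand off a cloud centred near 0, and most of those past a ratio of 1 lie under 10 FPKM.

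The targeted gene was measured in every library. Foxo1 (chr3:52072259-52154031, build mm9) stood at 17.4 FPKM in WT (bounds 16.7 to 18.2) and 14.1 in KR (bounds 13.5 to 14.8), a ratio of -0.28 (interval -0.37 to -0.20). In the refed libraries it stood at 18.8 FPKM in WT and 13.8 in KR. Foxo1 transcript was thus lower in KR in both feeding states, with bounds apart and under the fold of a call. A changed codon leaves the transcript in place, so this level does not check the genotype labels. The paralogs Foxo3 (8.89 FPKM in WT and 8.29 in KR), Foxo4 (9.42 and 8.70) and Foxo6 (13.1 and 15.1) had ratios of -0.09, -0.10 and 0.20. Only for Foxo6 among these 3 were the bounds apart. Within 5 Mb of the Foxo1 start none of the 26 tested genes was called, too few genes to show a difference in calls. Bounds were apart for 19.2% of them, against 23.1% of all genes. On the rest of the chromosome 9 of 545 tested genes were called, against 105 of 11923 over all genes, and bounds were apart for 27.3%.

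The hormones that define islets dominated both libraries. Iapp, the amyloid peptide that beta-cells store with insulin, stood at 35463 FPKM in WT and 46126 in KR, and Gcg, the glucagon precursor of alpha-cells, at 21258 and 26030.5. Sst of delta cells stood at 2652 and 3151, and Ppy of PP cells at 9362 and 8517. Ins2, the main mouse insulin gene, was at 122864 FPKM in WT and has no value in fasted KR, where its row carries a status other than OK. Of 33 acinar genes 29 were under the filter or without a value, 15 of them at 0 in both libraries. Among these 29 were digestive enzyme genes, with Cpa1 at 0 and 0.0553 FPKM, Ctrb1 at 0 and 0.838, and Pnlip at 0.0299 and 0.0889, in WT and KR. Those above the filter included the elastase Cela1 at 35.0 and 39.7 FPKM, the transcription factor Bhlha15 at 21.8 and 24.4, and Try5 at 4.34 and 2.95, and among these 3 bounds were apart for Bhlha15. Adipoq and Plin1 of adipocytes were listed at 0 in both.

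Genes of beta-cell identity and maturity were mostly higher in fasted KR islets. The list holds transcription factors, glucose-sensing proteins and hormones, 36 genes in all, of which 34 were tested. Of these, 28 lay above 0, against 40.1% of all genes. Bounds were apart for 22 higher (64.7%) and 1 lower (2.94%), against 7.5% and 15.6% of all genes. Calls numbered 5, all higher, where 0.503% of all genes were called higher. The list median was 0.23, against -0.03 for all genes, and the refed median of the same list was 0.09. It was 0.27 and 0.22 under the 2 other scalings. In bulk islets, more cells of a type and more RNA per cell cannot be told apart. In the same libraries the summed level of all 33 endothelial genes with a value was 119 FPKM in WT and 93.9 in KR, that of 28 class II and macrophage genes 599 and 634, and that of 21 lymphocyte genes 18 and 43.9. Their part in the beta-cell ratios was not tested.

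Mafa, a transcription factor that drives insulin and glucose-sensing genes in mature beta-cells (chr15:75577273-75578352), stood at 27.7 FPKM in WT (bounds 25.5 to 29.9) and 53.5 in KR (bounds 50.4 to 56.5). In the refed libraries it was at 32.8 and 36.8 FPKM. The fasted KR value was thus the highest of the 4, and the other 3 lay between 27.7 and 36.8. Its ratio was 0.93 (interval 0.79 to 1.06) in fasting and 0.16 after refeeding, where bounds overlapped.

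Slc2a2, the GLUT2 transporter that lets glucose into beta-cells (chr3:28596825-28627282), stood at 47.3 FPKM in WT and 85.4 in KR in fasting, and at 108 and 158 after refeeding. The ratios were 0.84 (interval 0.77 to 0.91) and 0.54. KR was higher than WT in both states. G6pc2, the islet glucose-6-phosphatase subunit that opposes glucokinase, showed the same order: 221 FPKM in WT and 366 in KR in fasting, then 542 and 776 after refeeding, with ratios of 0.73 (interval 0.69 to 0.76) and 0.52. Ffar1, a receptor for long-chain fatty acids that amplifies insulin secretion, was called higher in fasting. It stood at 18.2 FPKM in WT and 28.8 in KR in fasting, a ratio of 0.64 (interval 0.44 to 0.83), and at 30.8 and 30.8 after refeeding, a ratio of 0.00.

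Ins1, the second mouse insulin gene (chr19:52338813-52339948), stood at 4319.8 FPKM in WT and 7966 in KR in fasting and at 3498 and 12196 after refeeding. Both KR values were above both WT values, with ratios of 0.88 (interval 0.87 to 0.89) and 1.8. Ins1 and Ins2 are closely similar copies, and how reads were split between them is not known, so the Ins1 level is uncertain, more so where Ins2 lacks a value. Ins2 after refeeding was at 121397 FPKM in WT and 201043 in KR.

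Other identity genes differed by less than a call. Pdx1, which specifies pancreas and keeps beta-cells mature, stood at 44.9 FPKM in WT and 63.7 in KR, a ratio of 0.49. Mlxipl, the glucose-responsive factor ChREBP, was at 62.8 and 92.4 (0.55), and Trpm5, a cation channel of the glucose response, at 17.1 and 24.2 (0.48). Ucn3, a maturity marker, had a ratio of 0.38, Nkx2-2 0.34, Isl1 0.37, Pax6 0.22 and Nkx6-1 0.16, all with bounds apart. The channel subunits Abcc8 (0.03) and Kcnj11 (-0.03) and the incretin receptors Glp1r (0.06) and Gipr (0.02) had overlapping bounds. Syt4, a synaptotagmin of secretory vesicles, was the 1 member lower with bounds apart, at 137 FPKM in WT and 101 in KR (-0.43).

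Of the glucose-induced genes, 5 of 16 were higher with bounds apart and 2 lower, or 6 and 1 after division by the median ratio, with a median of 0.08. Mafa, Slc2a2 and G6pc2 are its called members and are shared with the identity list. Txnip, an inhibitor of glucose uptake that glucose induces strongly, stood at 18.9 FPKM in WT and 24.0 in KR (0.33), with a refed ratio of 0.51. Arrdc4, its close relative, was lower in fasted KR, at 7.63 and 5.79 (-0.34).

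Prohormone processing and granule genes leaned the same way with smaller ratios. Of 28 tested, 22 lay above 0, against 40.1% of all genes, and none was called, with a median of 0.07. Bounds were apart for 15 higher (53.6%) and 3 lower (10.7%), against 7.5% and 15.6% of all genes. Pcsk1n, an inhibitor of the convertase Pcsk1, stood at 317 FPKM in WT and 449 in KR (0.50), and the convertase Pcsk2 at 1117 and 1441 (0.37). The abundant granins Chga, Chgb and Scg2 had ratios of 0.14, 0.05 and 0.23. The carboxypeptidase Cpe was even, at 2145 and 2154 FPKM. Vgf, a granin-like peptide precursor, was lower at 20.5 and 16.1 (-0.33) and also lower after refeeding (-0.39).

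Markers of the other endocrine cells were also higher in KR more often than lower. Of 19 tested, 16 lay above 0, against 40.1% of all genes. Bounds were apart for 9 higher (47.4%) and 2 lower (10.5%), against 7.5% and 15.6% of all genes. After division by the median ratio the counts were 12 and 1. The median was 0.22, against 0.06 in the refed pair. Rbp4, the plasma retinol carrier, was the 1 called member, at 163 FPKM in WT (bounds 157 to 169) and 252 in KR (bounds 245 to 259.6), a ratio of 0.63 (interval 0.56 to 0.69), and it was higher in the refed KR library as well (0.38). Gcg had a ratio of 0.29, Ttr of 0.34 and Sst of 0.25. Ppy and Pyy were lower, at -0.14 and -0.06. Beta-cell markers and these markers thus lay above 0 in the same library, and the share of each cell type in the pools was not measured.

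Progenitor genes went both ways, and genes normally silenced in beta-cells were more often higher than lower by their bounds. Of 14 progenitor and dedifferentiation genes only 6 were tested, with 2 higher and 1 lower by their bounds. Neurog3, the factor that starts endocrine differentiation, stood at 7.30 FPKM in WT and 9.95 in KR (0.40), and Serpina7 at 19.2 and 12.7 (-0.55). Aldh1a3, used as a marker of failing beta-cells, was under the filter at 0.360 and 0.190 FPKM. Of 14 disallowed genes tested, 8 lay above 0 and none was called, with a median of 0.03. With bounds apart 4 were higher (28.6%) and 0 lower, against 7.5% and 15.6% of all genes. Ldha, the best known of them, stood at 5.76 and 5.52 FPKM.

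**Figure D2:**
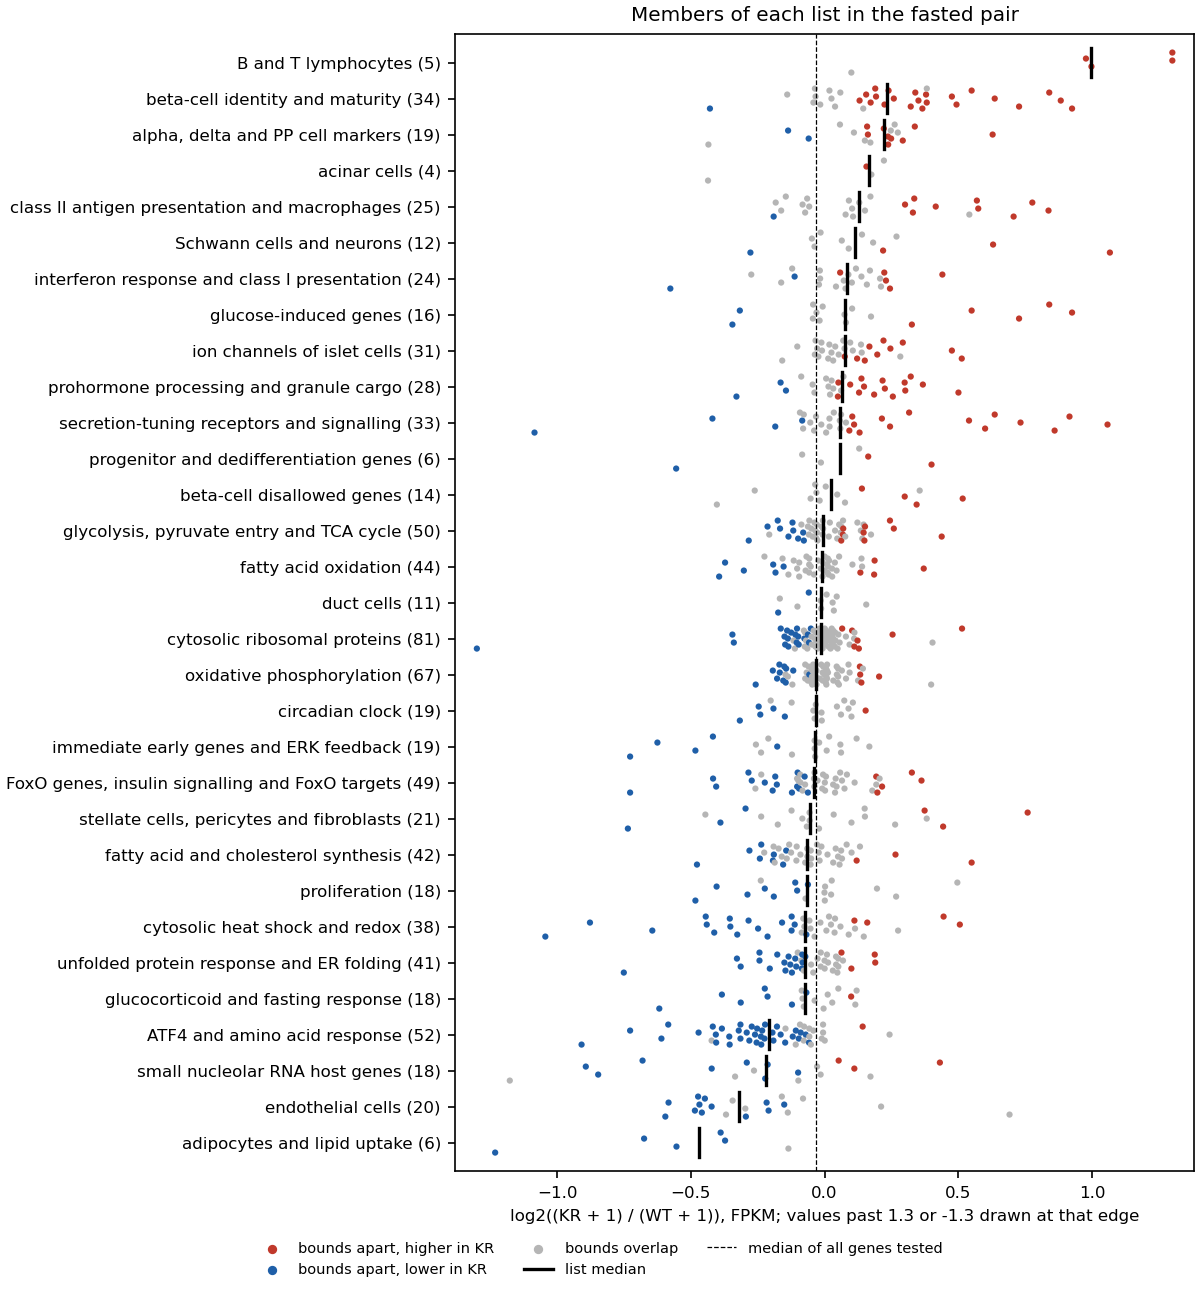
Ratio of each tested member (x axis, log2 of FPKM + 1) in the 31 gene lists (y axis, number of tested members in brackets), sorted by list median. Red and blue points have bounds apart, black bars are list medians and the dashed line is the median of all genes tested. Beta-cell and other endocrine lists stand to the right of the line, and the ATF4, small nucleolar RNA host, endothelial and lipid uptake lists to the left.

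Receptors that tune secretion were called in both directions. Of 33 tested, 6 were called higher and 1 lower, against 0.503% and 0.377% of all genes. Of the 6, Sstr2 was under 1 FPKM in WT and passed the filter through KR, so its call lends no support. Bounds were apart for 14 higher (42.4%) and 4 lower (12.1%), against 7.5% and 15.6% of all genes, with a median of 0.06. Gpr119, a receptor for lipid amides that raises cyclic AMP, stood at 6.63 FPKM in WT and 13.4 in KR (0.92), and Adora2b, an adenosine receptor with the same output, at 10.4 and 19.6 (0.86). Cnr1, the cannabinoid receptor CB1, was at 1.3 and 3.80 (1.06). Cnr1, Adora2b and Gpr119 were higher in the refed KR library too, at 1.04, 0.78 and 0.47. Gpr142, a receptor for aromatic amino acids, stood at 10.5 FPKM in WT and 16.4 in KR (0.60), and the somatostatin receptor Sstr2 at 0.557 and 1.59 (0.73).

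Vipr2, the VPAC2 receptor for the neuropeptides VIP and PACAP (chr12:117316196-117384734), was the lowest member. It stood at 12.2 FPKM in WT (bounds 11.5 to 13) and 5.24 in KR (bounds 4.74 to 5.74), a ratio of -1.08 (interval -1.23 to -0.94), and at 2.50 and 1.3 FPKM after refeeding. Both KR values were below the WT value of the same state, with a refed ratio of -0.61. The short-chain fatty acid receptors parted: Ffar2 stood at 14.2 FPKM in WT and 10.4 in KR (-0.42) and Ffar3 at 3.11 and 4.97 (0.54). Outside the list, and chosen after their values were seen, Avpr1b, a vasopressin receptor, was called higher at 2.38 and 4.28 FPKM, and so was P2ry12, a receptor for ADP, at 1.13 and 2.24.

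Of 31 ion channel genes tested, 23 lay above 0, against 40.1% of all genes, and none was called, with a median of 0.07. With bounds apart 10 were higher (32.3%) and 0 lower, against 7.5% and 15.6% of all genes. Kcnk3, a background potassium channel, stood at 5.69 FPKM in WT and 8.54 in KR (0.51) and Kcnmb2, a subunit of the calcium-activated potassium channel, at 40.1 and 49.4 (0.29). The main voltage-gated calcium channel gene Cacna1d was even, at 23.3 and 23.1 FPKM.

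Genes of fatty acid oxidation, the pathway in the series title, were close to even in fasting. Of 51 listed, 44 were tested and 0 were called. Bounds were apart for 4 higher (9.09%) and 6 lower (13.6%), shares near those of all genes, and after division by the median ratio the counts were 5 and 5. Their median was -0.01 as deposited and changed sign to 0.02 after division by the median ratio. Cpt1a, which admits long-chain fatty acids to mitochondria and limits the pathway, stood at 28.1 FPKM in WT (bounds 27.1 to 29.1) and 28.1 in KR (bounds 27.1 to 29.1). Its bounds overlapped almost fully, with a ratio of 0.00 (interval -0.07 to 0.07). The refed values were 17.5 and 16.2, a ratio of -0.10.

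Pdk4, a FoxO target that shuts glucose carbon out of mitochondria in fasting, was at 11.2 and 10.9 FPKM (-0.04). Acadvl (0.00), Hadha (0.04) and Acadl (-0.02), enzymes of the oxidation spiral, had overlapping bounds. The members lower with bounds apart included Plin2, which coats lipid droplets (41.7 and 31.5 FPKM, -0.39), and Pparg, a lipid-storing nuclear receptor (37.8 and 29.0, -0.37). Higher were Ucp2, an uncoupling protein homologue (43.3 and 56.2, 0.37), Cpt2 (0.13), Eci2 (0.19) and Hadh (0.19). Ppara stood at 0.459 and 0.308 FPKM and the coactivator Ppargc1a at 0.764 and 0.732, both under the filter.

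The other fuel pathways were also near the median of all genes, with 0 calls in each. Fatty acid and cholesterol synthesis had a median of -0.06 over 42 genes, with 3 higher and 8 lower by their bounds, or 6 and 6 after division by the median ratio. Stard4, a cholesterol carrier, was its lowest member at 4.70 FPKM in WT and 3.09 in KR (-0.48), and Insig1 (-0.24), Lss (-0.28) and Scd2 (-0.24) were lower with bounds apart. Glycolysis, pyruvate entry and the TCA cycle had a median of -0.01 over 50 genes, with 9 higher and 10 lower. Gpd2, the glycerol phosphate shuttle enzyme, was its highest at 23.8 FPKM in WT and 32.6 in KR (0.44), and Pgk1 its lowest at 78.9 and 64.7 (-0.28). Oxidative phosphorylation had a median of -0.03 over 67 genes, with 4 higher and 11 lower. After division by the median ratio the glycolysis and oxidative phosphorylation medians changed sign, to 0.03 and 0.00, and the counts became 13 higher and 6 lower, and 7 and 7.

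FoxO genes, insulin signalling genes and textbook FoxO targets held 1 call among 49 tested, Atf3, described with the stress genes. Bounds were apart for 5 higher (10.2%) and 15 lower (30.6%), against 7.5% and 15.6% of all genes, or 9 and 9 after division by the median ratio, and the median was -0.04. The receptors Insr (13.5 FPKM in WT and 11.8 in KR, -0.18) and Igf1r (20.9 and 18.2, -0.19) were lower with bounds apart. Cdkn1a, the cell cycle inhibitor p21, was at 46.5 and 39.7 FPKM (-0.22). Sesn1, a stress sensor and FoxO target, was the highest member at 11.9 and 15.6 (0.36), and Bcl2l11, which promotes cell death, followed Txnip at 0.21. Irs2 (-0.07), Cat (0.04), Sod2 (-0.04), Ccng2 (0.19) and Fbxo32 (-0.09) had overlapping bounds. Pck1, Igfbp1, G6pc and Trim63, FoxO targets of liver and muscle, were listed at 0 in both fasted libraries.

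Promoters were searched for the letters GTAAACA, a FoxO binding motif, on both strands in RefSeq promoters of 300 bases (build GRCm38.p6, 250 before to 50 after each start site). The motif was in 4.05% of the 27025 genes in that table and in 3.13% of the 9508 tested genes with a promoter there, in 5 of 40 FoxO list members with a promoter (Akt1, Bcl2l11, Klf9, Sesn1 and Txnip) and in 2 of 37 genes called lower (Adam8 and Mid1). Of the 60 genes called higher only 43 had a promoter, so no share is given. This is a smaller part than among all tested genes (79.7%) and genes called lower (37 of 45). The motif was in that of Rbp4. The stretches of Rbp4 and Mid1 are shown because these called genes carry it, with the motif on either strand in capitals, 5′ to 3′. They lie at chr19:38125516-38125571 on the minus strand and chrX:169685044-169685130 on the plus strand.
Rbp4: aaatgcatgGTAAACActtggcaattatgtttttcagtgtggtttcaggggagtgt
Mid1: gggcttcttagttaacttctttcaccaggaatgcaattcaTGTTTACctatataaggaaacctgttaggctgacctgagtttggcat
Mid1, a ubiquitin ligase on microtubules, stood at 12 FPKM in WT and 6.66 in KR (-0.76), the opposite direction to Rbp4. A match of letters is no evidence of binding, and the files hold no binding data. CACGTG, the E-box core, was in 8.09% of genes in the table, in 12.1% of the tested genes with a promoter and in 5 of the 37 genes called lower (13.5%), close to the tested genes.

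Targets of ATF4 were lower in fasted KR islets as a group. ATF4 is the transcription factor of the integrated stress response, which slows translation and turns on amino acid synthesis, amino acid import and transfer RNA charging. Of 53 listed genes 52 were tested, 49 lay below 0, and bounds were apart for 36 lower (69.2%) and 1 higher (1.92%), against 15.6% and 7.5% of all genes. The median was -0.21 as deposited and -0.17 and -0.22 under the other scalings. In the refed pair the same list had a median of -0.03, with 10 lower and 5 higher by their bounds. The refed libraries were shallower, at 0.686 and 0.411 of the fasted WT depth, and the difference between states could not be tested.

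Ddit3, the stress factor CHOP, stood at 1102 FPKM in WT and 735 in KR, a ratio of -0.58 (interval -0.62 to -0.55), and at 131 and 117 after refeeding (-0.16). The fasted WT value was the highest of the 4. Ppp1r15a, which restarts translation by undoing the eIF2 phosphorylation, was called lower at 113 and 73.4 FPKM (-0.61), with 22.9 and 22.4 after refeeding (-0.03). Both refed values lay below both fasted ones. Stc2, a secreted glycoprotein induced by ER stress, was called lower at 5.36 FPKM in WT and 2.39 in KR (-0.91), and Atf3, a stress-induced factor, at 13.9 and 7.99 (-0.73). Their refed ratios were -0.21 and -0.12, with overlapping bounds. The call of Ppp1r15a was lost after division by the median ratio, and Ddit3 became a call under the scaling to equal sums.

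Atf4 itself was nearly even, at 460.4 FPKM in WT and 438 in KR (-0.07) with bounds apart. ATF4 protein is known to be set mostly by translation, which transcript levels do not show. Serine and one-carbon enzymes were lower with bounds apart: Psat1 (-0.31), Phgdh (-0.22), Shmt2 (-0.35), Mthfd2 (-0.22) and Aldh1l2 (-0.41). Amino acid importers were lower as well: Slc3a2 at 310.4 FPKM in WT and 224 in KR (-0.47), Slc7a1 (-0.42), Slc6a9 (-0.32) and Slc1a4 (-0.31). So were the transfer RNA synthetases Yars (-0.25), Tars (-0.24), Nars (-0.24), Iars (-0.23), Eprs (-0.19) and Sars (-0.19). Trib3, a pseudokinase of the same response, stood at 245 and 201 FPKM (-0.28), and Nupr1 at 2192 and 1791 (-0.29). Asns, asparagine synthetase, had a ratio of -0.12, and Sesn2, Chac1 and Slc7a11 had overlapping bounds. Atf5, another factor of the response, was the 1 member higher with bounds apart, at 321 and 354 (0.14).

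**Figure D3:**
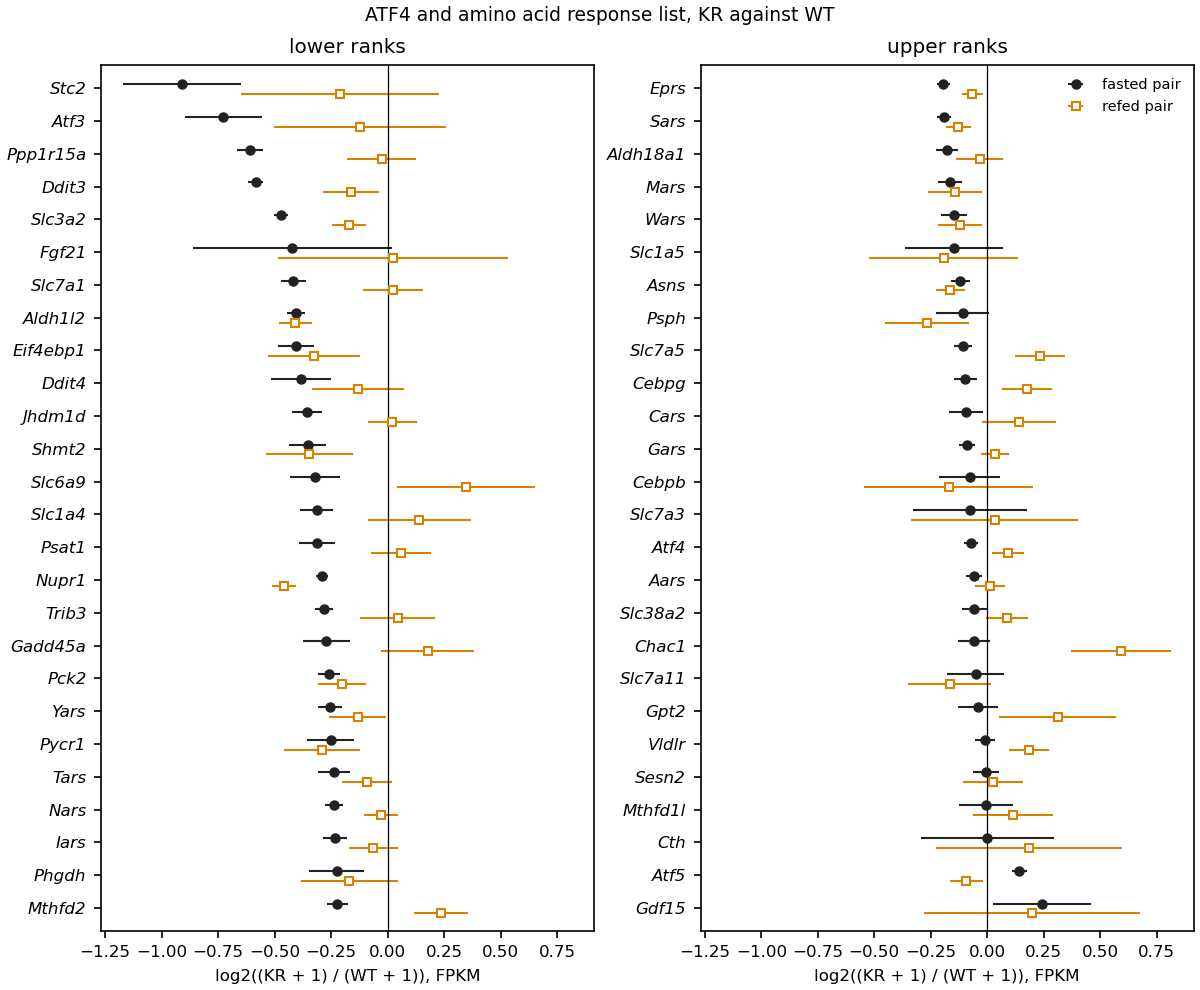
Ratio of KR to WT (x axis, log2 of FPKM + 1) for the 52 tested members of the ATF4 and amino acid response list, fasted pair in black and refed pair in orange, with intervals from the deposited bounds. Fasted ratios run from -0.91 (Stc2) to 0.24 (Gdf15) with 49 below 0, and refed ratios lie on both sides of 0.

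The C/EBP-ATF composite element, which ATF4 binds together with C/EBP factors, was searched as TGATGNAAT on both strands of the same promoters. It was in 1.08% of the 27025 genes in the table, in 0.515% of the 9508 tested ones and in 6 of the 43 list members with a promoter (14%): Nupr1, Fgf21, Aars, Gars, Iars and Pycr1. Of the 37 genes called lower with a promoter 0 carried it, and of the 1484 lower by their bounds 0.876% did. Rbp4, called higher, carried it as well. Stretches of 4 of the 6 list members are shown since the list was lower together, with the element on either strand in capitals. They lie at chr7:126625533-126625621 on the minus strand, chr7:45615582-45615670 on the minus strand, chr11:120643803-120643891 on the minus strand and chr6:55037930-55038000 on the plus strand.
Nupr1: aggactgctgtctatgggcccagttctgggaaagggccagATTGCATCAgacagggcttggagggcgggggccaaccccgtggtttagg
Fgf21: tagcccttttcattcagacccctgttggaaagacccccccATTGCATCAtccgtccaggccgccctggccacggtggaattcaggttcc
Pycr1: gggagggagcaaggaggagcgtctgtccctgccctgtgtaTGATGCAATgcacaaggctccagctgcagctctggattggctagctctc
Gars: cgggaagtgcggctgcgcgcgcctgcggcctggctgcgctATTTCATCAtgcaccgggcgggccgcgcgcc
The element starts 111, 140, 103 and 31 bases before the start sites, in that order. The same genes had fasted ratios of -0.29, -0.42, -0.25 and -0.09, which differed in size. Fgf21, a fasting hormone, was low at 2.34 FPKM in WT and 1.49 in KR, and its bounds overlapped. Ddit3, Trib3 and Asns had no match in this window, which says nothing of sites elsewhere.

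The endoplasmic reticulum branch of the stress response was less uniform. Of 41 unfolded protein response and folding genes, 14 lay above 0, and the median was -0.07, the same as in the refed pair. Bounds were apart for 18 lower (43.9%) and 4 higher (9.76%), against 15.6% and 7.5% of all genes. Derl3, a channel subunit for degrading misfolded proteins, was the 1 call, at 11 FPKM in WT and 6.11 in KR (-0.75). Hspa5, the chaperone BiP, stood at 2085 and 1661 FPKM (-0.33), with a refed ratio of -0.32. Calr (-0.24), Edem1 (-0.31) and Sdf2l1 (-0.18) were lower in both states. Xbp1, the factor spliced by the sensor Ire1, was higher at 0.10, and the foldases P4hb and Pdia3 were even, both at 0.00. Division by the median ratio moved the count to 10 higher and 15 lower.

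Several cytosolic chaperones were lower in fasted KR, while their list as a whole lay near all genes. Of 38 heat shock and redox genes 14 lay above 0, close to the 40.1% of all genes. By their bounds 17 were lower and 4 higher, and 3 were called lower. The median was -0.07, against -0.03 for all genes. After division by the median ratio 14 were lower and 5 higher, with a median of -0.04. Of all genes 15.6% were lower and 7.5% higher by their bounds. In the refed pair the list had a median of -0.15, with 21 lower and 0 higher. More members were thus lower than higher by their bounds in both states. Hspa1b, an inducible HSP70 gene (chr17:35093374-35096183), stood at 9.99 FPKM in WT and 4.33 in KR in fasting and at 2.64 and 2.26 after refeeding. Its neighbour and near-identical copy Hspa1a (chr17:35106304-35109101) stood at 7.67 and 3.72, then 2.24 and 1.92. The fasted WT library was the highest of the 4 for both, with fasted ratios of -1.04 (interval -1.21 to -0.87) and -0.88 (interval -1.06 to -0.70) and refed ratios of -0.16 and -0.15. Reads may have been split between the copies, so their separate levels are uncertain.

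The constitutive chaperone Hspa8 stood at 1602 FPKM in WT and 1203 in KR (-0.41), Hsp90aa1 at 232 and 181 (-0.35), Hsph1 at -0.35 and the mitochondrial pair Hspd1 and Hspe1 at -0.33 and -0.44. Bounds were apart for all 5. Zfand2a, a proteasome adaptor induced by heat and arsenite and in no list, was among the lowest genes at 38.6 and 21.9 FPKM (-0.79). Redox genes split: Gsto1, an omega-class glutathione transferase, was called lower at 184 FPKM in WT and 118 in KR (-0.64) and was lower after refeeding too (-0.79). Hmox1, heme oxygenase, was lower (-0.44), while Nqo1 (0.51) and Gpx3 (0.44) were higher with bounds apart.

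GAANNTTC, a pair of inverted units of the heat shock element, was searched on both strands after these values had been seen. It was in 9.04% of the genes in the promoter table, in 6.95% of the tested ones and in 8 of the 31 list members with a promoter, Dnaja1, Hspa1a, Hspa1b, Hspb1, Hspd1, Hspe1, Hsph1 and Sod1. The stretches are shown because Hspa1a and Hspa1b, the lowest of the list, carry the pair, in capitals, and Hspd1 and Hspe1 share one. Hspa1a lies at chr17:34972213-34972300 on the minus strand, and the stretch of Hspa1b, at chr17:34959295-34959382 on the minus strand, has the same letters. Hspd1 lies at chr1:55088024-55088111 on the minus strand, and Hspe1 starts from the same stretch in the opposite direction.
Hspa1a: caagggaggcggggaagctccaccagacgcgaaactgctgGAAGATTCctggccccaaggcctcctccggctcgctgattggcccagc
Hspd1: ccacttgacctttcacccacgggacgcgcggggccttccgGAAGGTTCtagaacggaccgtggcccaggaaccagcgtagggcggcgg
Hspb1 carried the pair as well and lay above 0, at 3.26 FPKM in WT and 4.15 in KR (0.27), with overlapping bounds.

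Immediate early genes and feedback genes of the ERK pathway had 5 of 19 tested members lower with bounds apart (26.3%) and 0 higher. Of all genes 15.6% were lower and 7.5% higher. After division by the median ratio the counts were 4 and 1. Atf3 was called, and so was Dusp4, a phosphatase that switches off ERK, at 11.9 FPKM in WT and 7.39 in KR in fasting and 2.00 and 2.39 after refeeding (ratios -0.63 and 0.18). Myc stood at 26.4 and 18.6 FPKM (-0.48) and Jun at 13.1 and 11.5 (-0.18). Fos, Fosb and Egr2 were under the filter, with Fos at 0.751 and 0.502 FPKM. Areg, an EGF receptor ligand chosen after its values were seen, was called lower at 11.7 and 7.27 and was under 1 FPKM in both refed libraries.

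Targets of the glucocorticoid receptor, which stress hormones activate in fasting, included 7 of 18 lower (38.9%) and 1 higher (5.56%) by their bounds. Of all genes 15.6% were lower and 7.5% higher. With equal sums the counts were 7 and 0. Lcn2, an iron-binding secreted protein, was the 1 call, at 163 FPKM in WT and 106 in KR (-0.62), with 195 and 116 after refeeding (-0.74). Division by the median ratio ended this call. The classic targets Fkbp5 (0.00), Tsc22d3 (0.03) and Per1 (-0.04) were even, while Sgk1 was lower (7.29 and 5.67 FPKM, -0.31). Clock genes held 1 higher and 5 lower of 19 by their bounds, or 2 and 4 after division by the median ratio and 0 and 5 with equal sums, with a median of -0.03 in fasting and 0.14 after refeeding. Nr1d1 (0.15) was higher and Bhlhe40 (-0.32) and Cry1 (-0.24) lower, and sampling times are not known here. Of 18 proliferation genes, 7 lay above 0, close to the 40.1% of all genes. With bounds apart 8 were lower (44.4%) and 0 higher, against 15.6% and 7.5% of all genes. Among the lower ones were Pcna (-0.19) and Mcm2 (-0.29), though division by the median ratio left 4. Cdkn2a was the highest member at 0.50, with overlapping bounds. The 14 listed proliferation genes that were not tested summed to 3.59 FPKM in WT and 3.57 in KR.

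Rps27, a small-subunit ribosomal protein gene (chr3:90016589-90017570), had the lowest ratio of any called gene. It stood at 90.2 FPKM in WT (bounds 83.4 to 97.1) and 18.7 in KR (bounds 15.3 to 22.0), and at 117 and 21.7 after refeeding. Both KR values lay far below both WT values, with ratios of -2.22 (interval -2.49 to -1.94) and -2.38. Rps27 has near-identical copies in the genome, so its level is uncertain, and it stood alone in its list. The median of the 81 ribosomal protein genes was -0.01, with 7 higher and 19 lower by their bounds, or 14 and 10 after division by the median ratio, which changed the sign of the median to 0.02. Its paralog Rps27l had a ratio of -0.34.

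Host genes of small nucleolar RNAs were lower in KR. These transcripts carry small nucleolar RNAs in their introns, and the spliced remainder of many is known to be degraded when it is translated. Of 18 tested, 8 were lower with bounds apart (44.4%) and 3 higher (16.7%), against 15.6% and 7.5% of all genes. The median was -0.22, and -0.15 in the refed pair. Snhg6 stood at 176 FPKM in WT and 94.6 in KR (-0.89), Snhg1 at 148 and 82.0 (-0.85) and Snhg5 at 42.2 and 26.0 (-0.68), all called. Gas5 was lower by less (-0.22), and Snhg11 was higher at 7.30 and 10.2 (0.43). Snhg9 stood at 12 and 4.73 with overlapping bounds.

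Lymphocyte transcripts were higher in fasted KR islets, at low levels. Of 23 listed genes 21 are in the files and 5 were tested, and bounds were apart for 4, all called higher. Igj and Cxcl13 were under 1 FPKM in WT and passed the filter through KR alone, so this count lends no support. Igj, the joining chain of secreted antibodies (chr5:88948834-88956922), stood at 0.0606 FPKM in WT (bounds 0 to 0.131) and 5.20 in KR (bounds 4.55 to 5.84). In the refed libraries it was at 0.0592 and 0.725 FPKM, so the fasted KR library stood apart from the other 3. Cxcl13, a B-cell chemokine, stood at 0.844 FPKM in WT and 5.68 in KR in fasting and 1.12 and 3.94 after refeeding. Cd79a of the B-cell receptor was at 2.91 and 6.81, then 3.36 and 5.98, and Cd52, a leukocyte surface protein, at 6.40 and 13.6, then 6.31 and 8.75. Their fasted ratios were 2.55, 1.86, 1.0 and 0.98. After refeeding bounds were apart, with KR higher, for Igj, Cxcl13 and Cd79a, and overlapped for Cd52.

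Among the 16 lymphocyte genes under the filter, FPKM was higher in KR for 15, and 9 were listed at 0 in WT and above 0 in KR. Over all symbols, 6641 were at 0 in WT and 6490 in KR. The share over all genes under the filter was not computed, so these counts lend no support. Cd79b stood at 0 and 1.15 FPKM, Ms4a1 at 0 and 0.655, Ltb at 0 and 0.812 and Cd3e of T cells at 0 and 0.185. Summed over all 21 genes, whether tested or not, the level was 18 FPKM in WT and 43.9 in KR. The locus 2010001M09Rik, which RefSeq lists as a synonym of the plasma cell gene Mzb1, was at 0.0549 and 2.39 FPKM in fasting and at 0 in both refed libraries.

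Genes of antigen presentation were higher along with them, and macrophage genes were not uniformly so. Of 25 tested, 9 were higher (36%) and 1 lower (4%) by their bounds, against 7.5% and 15.6% of all genes. The median was 0.13, and 0.15 in the refed pair. The class II genes H2-Aa (13 FPKM in WT and 24.1 in KR, 0.84), H2-Ab1 (6.46 and 11.8, 0.78) and H2-Eb1 (4.74 and 8.37, 0.71) were called higher. Their partner Cd74 stood at 36.2 and 54.2 (0.57). These genes serve B cells, macrophages and dendritic cells alike, and the part of the lymphocyte transcripts above in their ratios was not tested. Csf1r of macrophages was at 4.87 and 6.83 FPKM (0.42) and Lyz2 at 170.3 and 149 (-0.19). C1qa stood at 53.2 and 67.4 (0.34), higher with bounds apart in fasting and after refeeding. Ptprc, a leukocyte marker, stood at 1.45 and 2.08 in fasting with bounds apart. Ctss (-0.06), Cd68 (-0.18), Emr1 (-0.07) and Tyrobp (-0.08) had overlapping bounds. Interferon and class I genes had 5 higher and 2 lower of 24, with a median of 0.08. After refeeding the median was -0.10, with 1 higher and 3 lower, so the direction of the list was not shared between states. B2m stood at 0.24, Irf7 at 0.44 and Rsad2 at -0.58. Il1b and C3, chosen after their values were seen or by their 2-fold ratio, were called higher at 1.64 and 3.35, and at 0.761 and 2.56 FPKM.

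Endothelial transcripts were lower in fasted KR islets. Of 20 tested, 18 lay below 0, against 7138 of all 11923 genes. Bounds were apart for 12 lower (60.0%) and 0 higher, against 15.6% and 7.5% of all genes. The median was -0.32, and -0.14 in the refed pair. Pecam1, the adhesion molecule CD31, was the 1 call, at 3.83 FPKM in WT (bounds 3.39 to 4.27) and 2.20 in KR (bounds 1.87 to 2.53), a ratio of -0.60 (interval -0.79 to -0.40). In the refed libraries it stood at 2.20 and 1.96, so fasted WT was the highest of the 4. Division by the median ratio ended this call. Kdr, the VEGF receptor, stood at 2.78 FPKM in WT and 1.52 in KR (-0.58), Cdh5, the endothelial cadherin, at 2.82 and 1.78 (-0.46) and Plvap of capillary pores at 5.02 and 3.35 (-0.47). Of the 13 endothelial genes under the filter 11 had a lower FPKM in KR, and the share over all genes under the filter was not computed. Ly6a went the other way, at 0.681 and 1.71 FPKM, with overlapping bounds as deposited, and division by the median ratio made it a call, higher in KR. Cd34, also made by endothelium and chosen after its values were seen, was called lower at 2.98 and 1.64. Lyve1 of lymphatic endothelium and resident macrophages was called higher at 2.47 and 5.35.

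**Figure D4:**
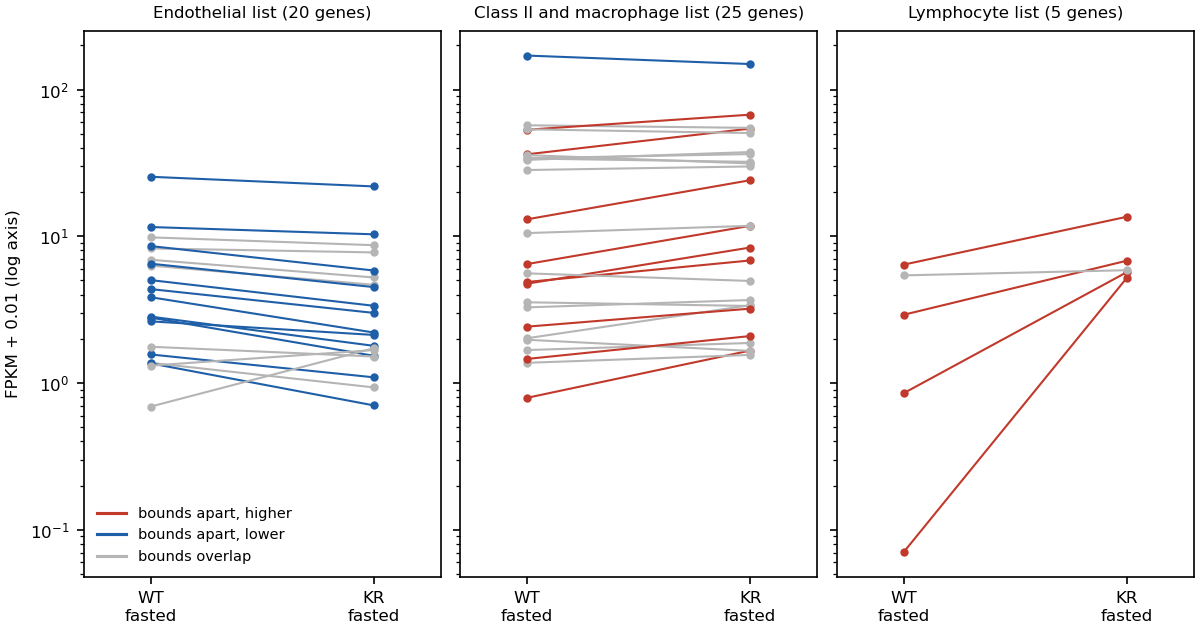
FPKM (y axis, log scale, 0.01 added) in the fasted WT and fasted KR libraries, 1 line per tested gene, for the endothelial, class II and macrophage, and lymphocyte lists. Lines with bounds apart are red (higher in KR) or blue (lower). Of the endothelial genes, 12 of 20 are lower with bounds apart, against 15.6% of all genes. The lymphocyte panel has 4 of 5 genes higher, but Igj and Cxcl13 passed the filter through KR alone, so that count lends no support.

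Genes of the adipocyte and lipid uptake list were lower, as were those of the endothelial list. Of 16 listed genes 6 were tested, all below 0, against 7138 of all 11923 genes, with a median of -0.47. Bounds were apart for 5 lower (83.3%) and 0 higher, against 15.6% and 7.5% of all genes. Fabp4, a fatty acid carrier, stood at 5.06 FPKM in WT and 1.58 in KR in fasting and 3.38 and 0.850 after refeeding (ratios -1.23 and -1.24), and Gpihbp1, which holds lipoprotein lipase on capillaries, at 4.30 and 2.32 (-0.67). Both were called. Cd36 was at -0.55. Lpl, at 173 FPKM in WT and 132 in KR (-0.39), stood far above the endothelial markers, and which cells made it was not tested. Adipoq, Plin1, Cfd, Retn and Lep, which define adipocytes, were listed at 0 in both fasted libraries. Pparg and Plin2 of the fatty acid list were lower in the same library, and the part of non-endocrine cells in their ratios was not tested.

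Stromal, duct and neural lists were mixed. Of 21 stellate and fibroblast genes 3 were higher and 3 lower by their bounds, with S100a4 called lower (19.2 FPKM in WT and 11.1 in KR, -0.74) and Dcn called higher (2.65 and 5.18, 0.76). Col1a1 (-0.06) and Pdgfrb (-0.08) were even. The 11 duct genes had a median of -0.01, which changed sign after division by the median ratio, with Spp1 at -0.17. Cldn11, a tight junction protein of myelin, was called higher at 2.53 FPKM in WT and 6.39 in KR (1.07), with the same ratio after refeeding (1.07), while Mbp, a myelin protein, stood at -0.02 with overlapping bounds. Th, which starts catecholamine synthesis, was called higher at 23.3 and 36.6 (0.63).

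Of the 105 called genes, 39 were in a list and 66 in none. Tmem59l, a membrane protein of neurons and endocrine cells, was among the highest by rank at 52.1 FPKM in WT and 95.2 in KR (0.86) and was called after refeeding too (0.60). Mlph, which links granule-bearing Rab27a to myosin, stood at 3.61 and 6.91 (0.78), the muscarinic receptor Chrm4 at 3.80 and 6.84 (0.71), and Pdyn, the dynorphin precursor, at 7.05 and 11.8 (0.67). On the lower side Igfbp3, which binds insulin-like growth factors, stood at 9.50 FPKM in WT and 3.70 in KR (-1.16) and the corepressor Nrip2 at 21.6 and 11.6 (-0.84). Slc2a1, the GLUT1 transporter, chosen after its values were seen, was called lower at 23 and 14.6 and was even after refeeding (8.91 and 9.45). Slc15a2, a peptide importer, was lower in both states, at 1.96 and 0.448, then 2.40 and 0.795. Folr1, a folate receptor, and Ang, a secreted ribonuclease, also chosen after their values were seen, were called higher at 0.67 and 0.65.

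A few transcripts were near 0 in WT and measured in KR. Pisd-ps1, a pseudogene, stood at 0.00194 and 4.11 FPKM in fasting and 0.00170 and 14.6 after refeeding. It was thus near 0 in both WT libraries only. Xlr4a, 1 of a cluster of near-identical X-linked genes, showed the same order at 0.351 and 3.29, then 0.877 and 3.25. The pseudogene Atp6v0c-ps2, at 0.00014 and 2.96, was near 0 in the other 3 libraries. Reads of pseudogenes and near-identical copies may be assigned to the wrong locus, so these 3 levels are uncertain. Of the 31 genes at least 2-fold apart, 12 were small RNA genes whose bounds overlapped, such as Snora31 and Mir31, which poly-A libraries do not measure well.

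Set beside the refed pair, which shares no library with the fasted one, most called genes kept their sign. Of the 60 called higher in fasting, 50 had a positive refed ratio and 18 were called higher after refeeding, where 0.471% of 11899 genes were called higher. Of the 45 called lower, 40 were negative and 12 were called lower, against 0.378%. None was called the opposite way. Their median ratios were 0.75 and -0.68 in fasting and 0.38 and -0.22 after refeeding. Over 11652 genes with a ratio in each pair, r (Pearson) was 0.35 and rho (Spearman) 0.29, and 61.8% of genes lay on 1 side of 0 in both. This is a description across genes, which are not independent replicates.

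Some genes were called in both feeding states, and others in fasting and not after refeeding. Rps27, Fabp4, Vipr2, Gsto1, Lcn2, Cnr1, Cldn11, Cxcl13, Adora2b and Tmem59l were called in the same direction in both pairs. Mafa (0.93 and 0.16), Ffar1 (0.64 and 0.00), Hspa1b (-1.04 and -0.16), Ppp1r15a (-0.61 and -0.03), Dusp4 (-0.63 and 0.18) and Slc2a1 (-0.62 and 0.08) were called in fasting, and their bounds overlapped after refeeding. These groups were formed by the values themselves, and no test of a difference between states is possible with 1 library each.

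**Figure D5:**
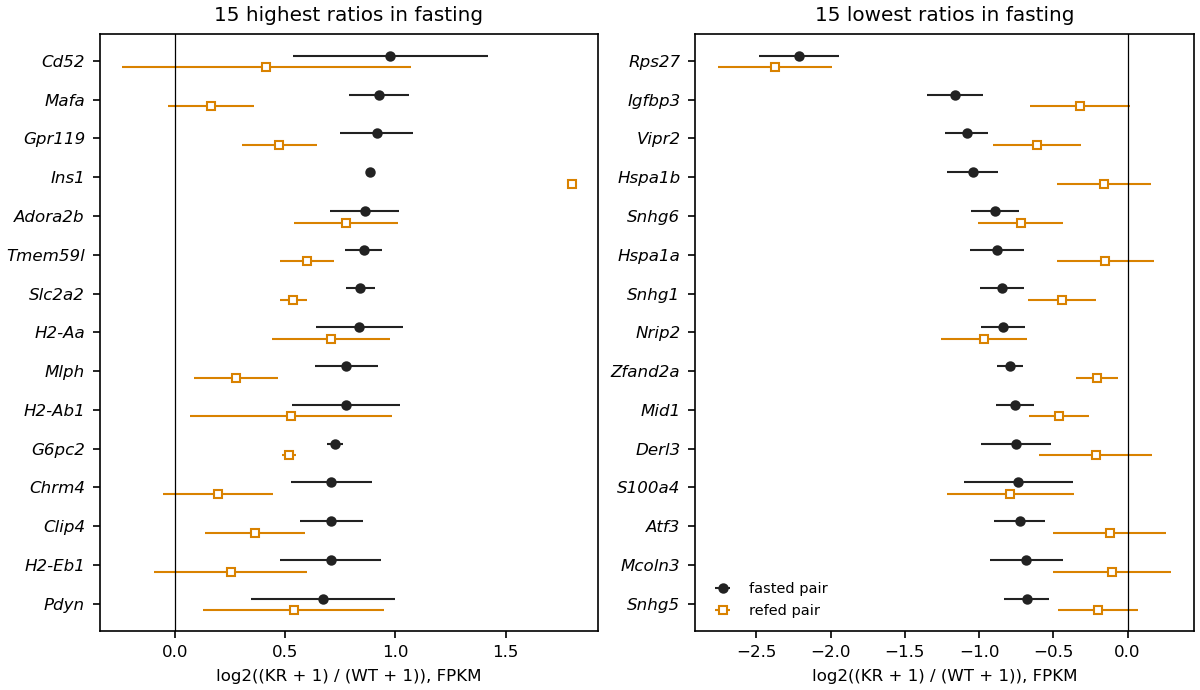
Ratio of KR to WT (x axis, log2 of FPKM + 1) for the 15 highest and 15 lowest named genes by rank in fasting (mean of at least 5 FPKM, bounds apart), fasted pair in black and refed pair in orange, with intervals from the deposited bounds. Ins1 is higher and Rps27 lower in both pairs, while Mafa, Hspa1a, Hspa1b and Atf3 lie near 0 after refeeding.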

How the data were processed

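Poly-A RNA of pooled islets was sequenced with the TruSeq kit, which does not mark strand, per the labels' protocols. The submitters' processing notes name bcl2fastq 1.8.4, TopHat2 2.0.4 and the build mm9. The authors deposited FPKM per gene with lower and upper bounds and a status. For the program, annotation and library totals behind them, the sources used here give no name or number. Rows of 1 symbol were summed, values needed status OK in both fasted libraries (183 of 23235 symbols lacked one) and a mean of at least 1 FPKM, and 1 FPKM was added before the log2 ratio. Calls needed 1.5-fold and bounds that did not overlap. With 1 library per group no test was run, and counting error only is covered. The code was tested on simulated data. Genes were named from a panel of 24, the 15 ratios at either end with a mean of at least 5 FPKM and bounds apart, genes 2-fold apart, and in each list the called, extreme and 3 most abundant members. Other list members and other genes were added after their values were seen. The 31 lists and the rules were chosen with earlier results of these data known. Alternatives changed the pseudocount, the filter, the scaling, the rows used and the fold. Analyses used Python 3.11.15, NumPy 2.4.6, pandas 2.3.3 and SciPy 1.17.1.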

Additional observations from a re-analysis of the deposited data

How the results depend on the processing

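The counts of called genes, 60 higher and 45 lower, moved by over 1.5 times with a pseudocount of 0.1 FPKM (112 and 88), for the higher genes with a mean of at least 5 FPKM (27 higher and 31 lower, so that lower calls outnumbered higher ones), and with a 2-fold rule (12 and 6). The sign of a called gene's ratio could not change under these alternatives. Neither the pseudocount nor the choice of genes alters a sign, and both scalings were small beside the fold of a call. Unchanged signs are therefore no check. Among endothelial genes, division by the median ratio ended the lower call of Pecam1 and made Ly6a a higher call. Counted once per gene and setting, 83 recomputed ratios left their interval and 1832 did not. Settings that only changed which genes were kept cannot move a gene's ratio, so many of the 1832 were the same by construction. Of the 83, 34 came with a pseudocount of 0.1 FPKM and 33 with division by the median ratio. Among list medians, counted the same way, 3 left their interval and 245 did not. The median changed sign for 5 of 31 lists under a scaling, namely fatty acid oxidation, glycolysis and the TCA cycle, oxidative phosphorylation, ribosomal proteins and duct cells, all within 0.05 of 0. No paired analysis was possible because each group is 1 pooled library with no replicate number, and no replicate could be left out for the same reason. Depth limits genes under 5 FPKM, where the median half-width of a ratio was 0.22, and differences between mice could not be measured at any depth.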
